A study of Mus musculus with 2 samples.

Results

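The 150 cells described here were the embryoid body (EB) cells with the strongest joint signal of Fgf5, Otx2, Pim2, Dnmt3b and Pou5f1, genes that mark the primed epiblast. They were chosen from 1878 EB cells, 7.99% of them. Each cell's UMIs (unique molecular identifiers, each standing for 1 captured transcript) were scaled to 10000, the natural log of 1 plus that value was averaged over the 5 genes, and the 150 cells of highest mean were taken. The other 1728 EB cells were the comparison. The measured values of the 5 genes thus chose the members, and those values are given only as a description.

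The primed epiblast is the pluripotent tissue of the implanted mouse embryo just before gastrulation. Its cells have switched off the naive programme of the blastocyst and embryonic stem cells, keep Pou5f1 and Nanog, and express Fgf5, Otx2 and the de novo DNA methyltransferases. NODAL, WNT and FGF signals then lead epiblast cells through the primitive streak, where T and Mixl1 appear and cells lose their epithelial contacts. Mesp1-positive nascent mesoderm, Kdr-positive haemangiogenic mesoderm and Sox17-positive definitive endoderm follow. Embryoid bodies are floating aggregates of embryonic stem cells that pass through the same steps in culture.

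The study profiled 2 droplet-based single-cell libraries from C57BL/6 mice, 1 of EBs and 1 of yolk sac, and only the EB library enters the comparisons here. For the yolk sac the labels give stages E9.5 and E10.5, 0.25% collagenase and a Ter119 removal of 70%. The EB cells came from embryonic stem cells, for which the labels name no genetic change, kept with LIF on mouse embryo fibroblast feeders and moved off feeders for 2 days. They were plated at 8000 cells per mL in 15% serum with 50 µg/mL ascorbic acid and dissociated on day 4. The labels call these EBs favourable to haemangiogenic mesoderm. The cells were frozen, thawed and sorted as live before capture. With 1 library, no test across samples was possible. The 95% intervals below are exact and cover counting error only, not the spread between cultures, and no p-value is given.

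The library held 73915225 UMIs. Cells were barcodes with at least 6172 UMIs and at most 10% mitochondrial UMIs. Members had 6383 to 73394 UMIs (median 26253.5) and a median of 4459.5 genes, and the other EB cells a median of 25485.5 UMIs and 4394.5 genes. The mitochondrial share was 2.76% in members and 2.85% in the others, and the ribosomal protein gene share was 31.9% and 30.9%. An empty droplet held a mean of 252 UMIs, 0.961% of the median member's total. Scrublet, a doublet caller, marked 3 EB cells, which is 0.16% against 1.5% expected and too few to count as a working call. Of the 80 EB cells with more than 2 times the median UMI total, 4 were members. The EB and yolk sac cell lists had 2 barcodes in common, and 0 of them were members.

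The score had no gap at its lower edge. Member scores ran from 1.28 to 2.02 with a median of 1.45, and the other cells had a median of 0.550. The last member scored 1.28113 and the first cell outside 1.27956. The 25 members nearest the edge (ranks 126 to 150) had 229 Fgf5 and 61.5 Otx2 CPM (UMIs scaled to a summed total of 1000000), and the next 25 cells (ranks 151 to 175) had 174 and 115. Pou5f1 stood at 1125 CPM just inside and 881 CPM just outside, and Dnmt3b at 326 and 436. The limit of 150 cells was thus set by the rule and not by a break in the score.

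**Figure D1:**
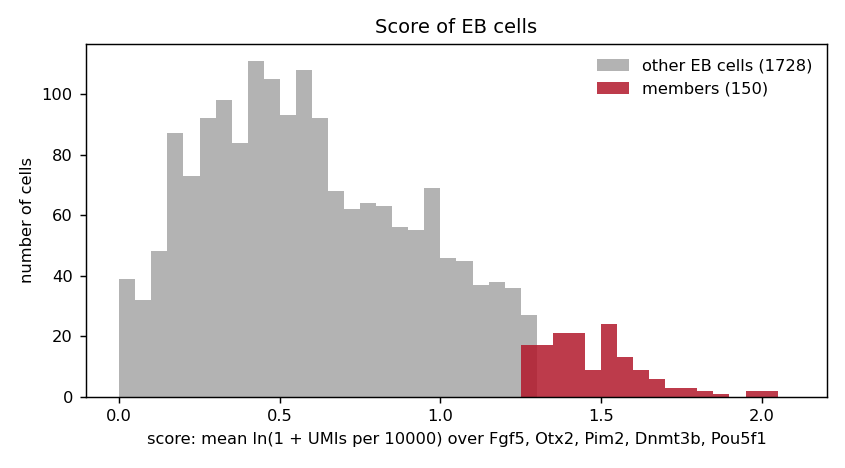
Histogram of the score of all EB cells (x axis, mean natural log of 1 plus UMIs per 10000 over the 5 genes; y axis, number of cells), members in red and the other 1728 cells in grey. Members fill the right tail above 1.28, with no gap between the colours.

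All 5 score genes were found together in 118 members (78.7%), and the other 32 members had UMIs of 4 of them. Among the other EB cells 190 (11%) held all 5.

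Fgf5 (ENSMUSG00000029337, GRCm38 chr5:98254184-98277030) encodes a fibroblast growth factor that marks the post-implantation epiblast. Members held 0 to 13.9 Fgf5 UMIs per 10000 (median 2.28). Summed over cells this was 252 CPM (95% interval 237 to 268) in members and 43.3 CPM in the others. Otx2 (ENSMUSG00000021848, chr14:48657677-48673819), a homeobox factor of the exit from naive pluripotency, ran from 0 to 7.88 per 10000 (median 0.946), with 111 CPM in members and 25.1 CPM in the others. Dnmt3b (ENSMUSG00000027478, chr2:153649450-153687730), a de novo DNA methyltransferase, ran from 0 to 11.5 per 10000 (median 3.95), with 435 and 131 CPM. Pou5f1 (ENSMUSG00000024406, chr17:35506018-35510772), the core pluripotency factor OCT4, had 1.03 to 23.7 per 10000 (median 11.1), with 1166 and 539 CPM. It was the only 1 of the 5 with a UMI in every member. Pou5f1 has near-identical processed copies in the genome, and how the counting treated reads shared with them is not given in the sources used here.

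Pim2 (ENSMUSG00000031155, chrX:7878262-7883432), a serine/threonine kinase, had the widest separation of the 5. It ran from 0 to 11.9 per 10000 in members (median 3.68), with 406 CPM in members and 55.2 CPM in the others. Its promoter is shown because it is the only score gene promoter with the octamer, the site letters bound by POU factors such as OCT4. The 250 bases before the RefSeq start (GRCm38.p6, plus strand, chrX:7878056-7878305) follow, with octamer matches in capitals. The Nanog bases (plus strand, chr6:122707239-122707488) are set beside them, since Nanog had the second highest ratio among genes outside the score with at least 50 CPM, with the letters of an OTX-type homeobox site in capitals.
Pim2: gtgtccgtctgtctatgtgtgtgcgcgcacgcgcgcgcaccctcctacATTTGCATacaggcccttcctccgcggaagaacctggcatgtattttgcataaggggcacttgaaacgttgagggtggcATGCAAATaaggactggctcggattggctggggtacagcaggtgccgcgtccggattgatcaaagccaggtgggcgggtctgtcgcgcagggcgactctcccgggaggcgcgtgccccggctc
Nanog: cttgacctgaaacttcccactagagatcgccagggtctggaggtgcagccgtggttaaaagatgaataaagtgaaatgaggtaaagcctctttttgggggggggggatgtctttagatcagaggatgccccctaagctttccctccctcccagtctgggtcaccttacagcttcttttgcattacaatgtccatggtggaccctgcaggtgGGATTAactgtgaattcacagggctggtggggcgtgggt

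The Pim2 promoter held 2 octamers, 1 in each orientation. The octamer (ATGCAAAT, or ATTTGCAT on the other strand) was found in 570 of 32851 promoters of 300 bases (250 before to 50 after the start), or 1.74%, and at least 2 copies in 35 (0.107%). The 9 promoters of the 5 score genes included 1 with an octamer, that of Pim2. The OTX letters (TAATCC, or GGATTA) were in 2320 promoters (7.06%) and in 2 of those 9, 1 each of Otx2 and Pou5f1. Promoters were listed for 11 of the 15 genes of highest ratio, and 3 of these 16 promoters had the OTX letters (Nanog and Phc1). For the 15 genes of lowest ratio, 2 of 17 promoters had them (Mest). The octamer was in 0 promoters of either set. Only exact matches were counted and set in capitals, so a site with other letters would be left unmarked. The search shows letters in a window and not binding.

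Because a score gene's own counts place a cell among the members, each gene was also measured in the 150 cells chosen by the other 4. Fgf5 was then 3.76 times as high as in the remaining cells (95% interval 3.46 to 4.08), with 117 of the 150 cells shared with the members. The ratio was 4.62 for Pim2, 3.16 for Otx2, 2.69 for Dnmt3b and 1.67 for Pou5f1. With members chosen on 1 part of each cell's UMIs and measured on the remaining part, the ratios ran from 2.08 (Pou5f1) to 6.93 (Pim2). That split still chose cells by all 5 genes, so a gene's own UMIs in the first part helped to choose them. Only the choice by the other 4 genes left a gene's own counts out, and there each gene was higher in the chosen cells. Within the members the genes did not all move together. Fgf5 and Otx2 had a Spearman correlation of 0.270 over the 150 cells, Fgf5 and Pou5f1 one of -0.304, and Fgf5 and Pim2 one of -0.345. These pairs share the cells' totals and the rule, which chose the cells on the mean of these genes' log values. Choosing cells on a mean can by itself bring negative correlations among its genes, so the signs only describe the members.

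Genes were compared where they had at least 200 UMIs over all EB cells, which left 9078, the 5 score genes among them. Of these, 101 (1.11%) were at least 2-fold higher in members by CPM of summed UMIs, and 329 (3.62%) at least 2-fold lower. The 101 include all 5 score genes, whose rise the rule set. The median log2 ratio over all 9078 was -0.03. List counts below are of genes past 2-fold and are read against those shares.

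Other genes of the primed and formative epiblast were modestly higher in members. Of 18 such genes outside the score, 15 could be compared, 3 were past 2-fold higher and 0 past 2-fold lower, with a median log2 ratio of 0.71. Slc7a3, an amino acid transporter, had 18.9 CPM in members and 6.21 CPM in the others, a ratio of 3.05. The zinc finger factors Zic5 (69.2 and 24.6 CPM, 2.82-fold) and Zic2 (19.6 and 9.78 CPM, 2.01-fold) were the other two past 2-fold. Zic5 UMIs were found in 82% of members, so its level was spread over most of them. Utf1 (52.7 and 32.2 CPM) and the POU factor gene Pou3f1 (18.2 and 9.37 CPM) were 1.64-fold and 1.94-fold higher. A Utf1 UMI was found in only 25.3% of members, and 5 members held 46.8% of its UMIs. Sox3 (ratio 0.705) and Lef1 (ratio 0.78) were lower in members. Foxd3, a forkhead gene of the epiblast, was too low for the filter but had 27 UMIs in members and 24 in all other EB cells, 6.47 against 0.516 CPM. Those 27 UMIs were in 14 members, and 5 of these held 66.7% of them.

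Core pluripotency genes were higher in members to a similar extent. All 12 of the list could be compared, 3 were past 2-fold higher and 0 past 2-fold lower, with a median log2 ratio of 0.46. Nanog, a homeobox factor of pluripotent cells, ran from 0 to 5.19 per 10000 in members (median 1.10), with 127 CPM (95% interval 116 to 138) in members and 42.9 CPM in the others, a ratio of 2.96. A Nanog UMI was found in 87.3% of members and 47.5% of the others, and in 50% and 20.1% once every cell was thinned to 6000 UMIs. The RNA-binding protein gene L1td1 (136 and 58.2 CPM) and Dppa4 (26.8 and 12.4 CPM) were the other two past 2-fold. Sox2, the partner of OCT4, had 42.2 and 21.6 CPM, a ratio of 1.95, but its median member had 0 UMIs and 47.3% of members had any. Tdgf1, the NODAL co-receptor CRIPTO, was found in every member (1.10 to 45.7 per 10000, median 9.11) and was 1.55 times as high as in the others. Sall4 (ratio 0.977) and Lin28a (ratio 1.07) hardly differed.

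Naive pluripotency genes were mostly near the floor or lower. Only 6 of 17 could be compared, 0 were past 2-fold higher and 3 past 2-fold lower, with a median log2 ratio of -0.93. Tbx3, a T-box factor also made in mesoderm, had 3.35 CPM in members and 47.3 in the others. Klf2 had 9.34 and 22.6 CPM and Prdm14 a ratio of 0.405. Zfp42, the naive marker REX1, had 11.7 and 16.5 CPM, and Esrrb (0.479 CPM) was below the 0.719 CPM that 3 UMIs in all members stand for. Dppa5a went the other way, with 1280 CPM in members and 648 CPM in the others. It ran from 0 to 86.9 per 10000 in members with a median of 5.28, and its upper quartile was 15.7. Dppa5a belongs to a family with near-identical copies, and its count is uncertain where reads could not be told apart.

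**Figure D2:**
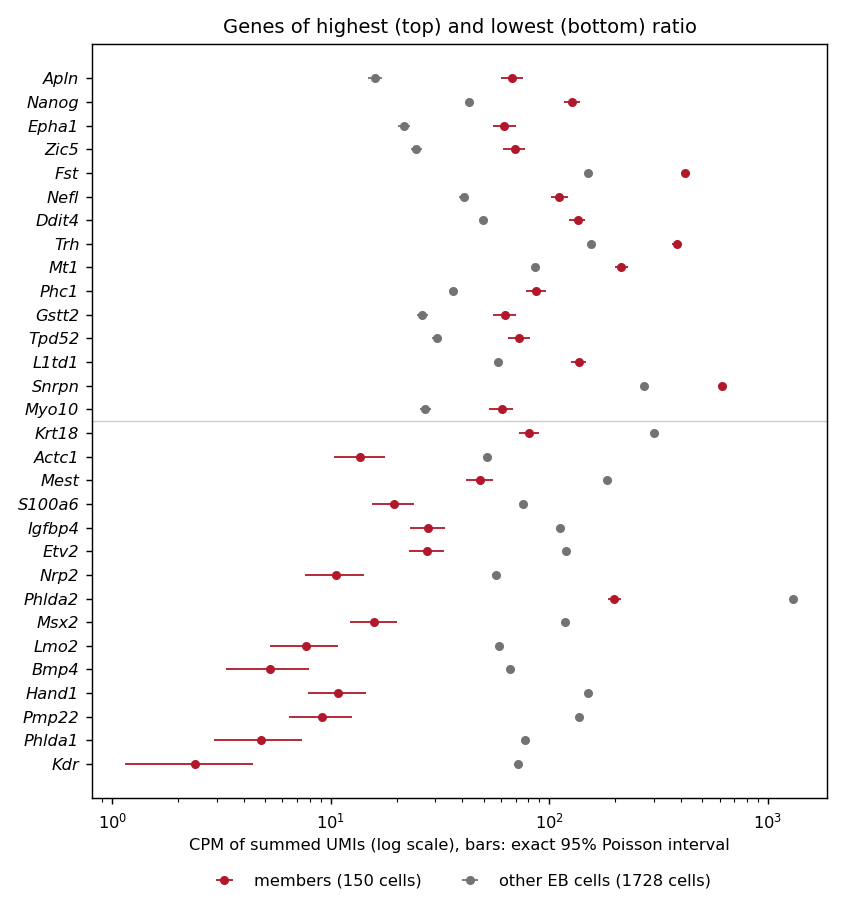
CPM of summed UMIs (log axis) in members and in the other EB cells for the 15 genes of highest and the 15 of lowest ratio outside the score, with exact 95% Poisson intervals as bars. Ratios run from 4.23 (Apln) to 0.0335 (Kdr), and the shifts are larger on the low side.

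The gene of highest ratio among those with at least 50 CPM was Apln, the ligand of the apelin receptor. Members had 0 to 3.20 Apln UMIs per 10000 (median 0.429), 67.5 CPM against 16.0 CPM, a ratio of 4.23 (95% interval 3.68 to 4.86). After Nanog came the ephrin receptor gene Epha1 (62.3 and 21.6 CPM) and Zic5. Fst, which encodes the activin-binding protein follistatin, ran from 0 to 18.6 per 10000 (median 3.54), with 417 and 150 CPM. It was found in 92.7% of members. The neurofilament gene Nefl (111 and 40.5 CPM), the stress-responsive mTOR inhibitor gene Ddit4 (134 and 49.8 CPM), the thyrotropin-releasing hormone gene Trh (384 and 155 CPM) and the metallothionein gene Mt1 (213 and 86.3 CPM) followed. These 4 sums leaned on few cells. The 5 highest members held 42.1% of the members' Mt1 UMIs, 27.8% for Trh, 22.8% for Ddit4 and 21.1% for Nefl. The median member had 0.428 Mt1 and 0.741 Trh UMIs per 10000. Phc1, Gstt2, Tpd52, L1td1, Snrpn and Myo10 closed the 15, with ratios from 2.40 to 2.23. Snrpn shares its transcript with Snurf, so its UMIs cannot be assigned to 1 of the 2 proteins. The 15 had ratios under 4.3, so every one of them was also present in the other EB cells.

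Members also carried primitive streak genes, at about the level of the other EB cells. Of 16 streak and nascent mesoderm genes, 15 could be compared, 1 was past 2-fold higher and 1 past 2-fold lower, with a median log2 ratio of -0.09. T, the brachyury factor of the streak, ran from 0 to 10.52 per 10000 in members (median 2.50), with 303 and 212 CPM. A T UMI was found in 88.7% of members (82.5 to 93.3) and 74.7% of the others, and in 69.3% and 52.1% after thinning. Free RNA at the level of empty droplets would give such a UMI in 3.83% of cells. The T-box factor Eomes (212 and 138 CPM), Fgf8 (599 and 398 CPM) and the WNT-responsive Sp5 (206 and 113 CPM) were 1.51 to 1.82 times as high in members. Wnt8a, a WNT ligand of the posterior epiblast and early streak, had 29.5 and 4.94 CPM, a ratio of 5.96 (95% interval 4.75 to 7.45). It lay below the 50 CPM asked of the 15 genes above, and was found in 44.7% of members and 9.72% of the others.

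Of the later genes of the list, some were lower and some close. Mesp1, the first factor of nascent mesoderm, ran from 0 to 25.5 per 10000 in members (median 0.238), and its UMIs were in 50.7% of members and 68.9% of the others. Summed, it had 352 and 509 CPM. The homeobox gene Mixl1 (ratio 0.81), Evx1 (ratio 0.753) and Cdx2 (12.7 and 39.4 CPM) were lower too, and Mesp2 (ratio 1.12) and Lhx1 (ratio 1.09) were close. A UMI was thus found in 88.7% of members for T, 94.7% for Eomes and 50.7% for Mesp1.

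Genes of mesoderm beyond the streak were low in members. Of 12 haemangiogenic genes, 8 could be compared and 7 were past 2-fold lower (median log2 ratio -3.22), and of 11 cardiac and lateral mesoderm genes, 9 could be compared and 8 were past 2-fold lower (median -3.23). Kdr, the VEGF receptor of haemangiogenic mesoderm, had 10 UMIs over all members, 2.40 CPM (1.15 to 4.40), and 71.5 CPM in the others. Its UMIs were in 6% of members, where free RNA alone would give 1.39%, and in 44.3% of the other cells. Hand1, a factor of lateral and extraembryonic mesoderm, had 10.8 CPM in members and 150 CPM in the others, and 73.3% of the members' UMIs were in 5 cells. Etv2, the ETS factor that specifies blood and endothelium, had 27.5 and 120 CPM, and Isl1, of heart progenitors, 0.719 and 18.8 CPM. Bmp4 (5.27 and 66.2 CPM), Lmo2 (7.66 and 59.1 CPM), Msx2, Pmp22, Phlda1, Phlda2, Nrp2, Igfbp4, S100a6, Mest, Actc1 and Krt18 were the remaining genes of lowest ratio. For Kdr, 21% of the members' few UMIs equal what free RNA would bring.

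Genes of the definitive endoderm list were higher in sum, some of them across most members and the defining ones in few. The summed list had a median of 4.03 UMIs per 10000 in members (0 to 51.8) and 1.82 in the others (0 to 149.5), and 1 member was at 0. Of 9 definitive endoderm genes, 8 could be compared, 3 were past 2-fold higher (Foxa2, Cer1 and Trh) and 2 past 2-fold lower (Cxcr4 and Krt19), with a median log2 ratio of 0.88. The forkhead gene Foxa2 had 13.7 and 3.63 CPM and the secreted NODAL and BMP antagonist gene Cer1 had 25.1 and 7.40 CPM. Foxa2 UMIs were in 26 members (17.3%) and Cer1 UMIs in 19 (12.7%), with 5 members holding 62.9% of the latter. Sox17, the defining endoderm factor, was in 17 members (11.3%), and 5 of them held 61.6% of its UMIs. Sox17 and Cer1 were in the same 12 members (Spearman 0.672 over the 150). Without the 36 members that had a UMI of Sox17, Cer1 or Foxa2, an alternative added after the data were seen, the Foxa2 and Cer1 log2 ratios are below 0 by construction. Trh, by contrast, had UMIs in 70% of members. Gsc, a homeobox gene of the anterior streak, had 69.7 and 37.8 CPM and UMIs in 61.3% of members.

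Markers of feeder fibroblasts, trophoblast and germ cells were lower in members, and those of neural and extraembryonic endoderm cells were not uniformly so. Of 9 markers of the feeder fibroblasts, 3 could be compared and 2 were past 2-fold lower, and their summed level was 10.8 CPM in members (0 to 0.833 per 10000 a cell) and 29.2 CPM in the others. Of 7 trophoblast genes, 4 could be compared and 3 were past 2-fold lower. Plac1 had 0 UMIs in members, with an exact upper limit of 0.884 CPM, against 5.52 CPM in the others. Of 12 neural genes, 1 reached the filter. The summed neural level was 30.7 CPM in members and 23.1 CPM in the others, with 80 members at 0. That gene was Nes (21.1 and 17.3 CPM), which encodes nestin. Of 8 germ cell genes, 5 could be compared, all 5 were below 0 in log2 ratio and 1 was past 2-fold lower. The list summed to 694 CPM in members and 1299.6 CPM in the others. Ifitm1 (457 CPM) and Ifitm3 (191 CPM) made up most of the members' sum, so it says little of the other genes. Of 10 extraembryonic endoderm genes, 2 could be compared, and the list summed to 418 and 482 CPM with a median a cell of 3.30 and 3.01 per 10000. Apoe, the apolipoprotein E gene, made up most of it (388 and 467 CPM), and the defining markers Afp and Ttr had 0 UMIs in members. The X-linked homeobox gene Rhox5 had 24.9 and 6.71 CPM, but only 10 members had a Rhox5 UMI and 5 of them held 94.2% of its UMIs.

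**Figure D3:**
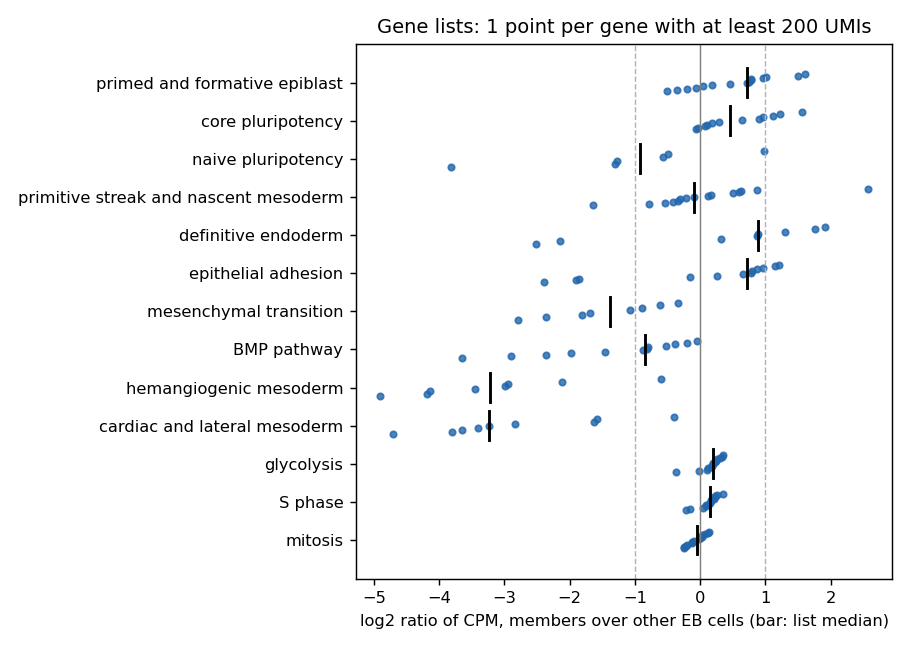
Log2 ratio of CPM, members over other EB cells (x axis), for each compared gene (points) of 13 lists, with each list's median as a bar and 2-fold as dashed lines. Haemangiogenic and cardiac genes have medians of -3.22 and -3.23, and the core pluripotency and primed epiblast lists 0.46 and 0.71.

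Adhesion genes were split in members. Of 13 epithelial genes, 12 could be compared, 2 were past 2-fold higher and 3 past 2-fold lower (median log2 ratio 0.72). Cdh1, the E-cadherin gene, had 45.3 and 20.5 CPM, the tight-junction gene Cldn3 9.82 and 4.26 CPM, and Epcam 206 and 112 CPM. Epcam was in 92.7% of members. The keratin genes Krt8 (110 and 398 CPM) and Krt18 (80.7 and 301 CPM) went the other way with Cldn4, and both keratins have many processed copies. All 8 mesenchymal genes compared were lower in members and 5 past 2-fold. Vim (vimentin, 121 and 423 CPM) ran from 0 to 7.48 per 10000 with a median of 0.697, and Fn1 (fibronectin, 220 and 709 CPM) from 0 to 17.5 with a median of 1.59. The summed mesenchymal list had a median of 3.75 UMIs per 10000 in members (0 to 22.9) and 12.9 in the others (0 to 53.8), so the ranges overlapped.

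Among signalling genes, BMP components and targets were lower, and of the NODAL pathway the ligand gene Nodal was higher while the list as a whole was not. All 12 BMP pathway genes were below 0 in log2 ratio and 5 were past 2-fold lower, including the ligands Bmp4 and Bmp2 (2.16 and 11.1 CPM) and the inhibitor gene Smad6 (5.51 and 21.8 CPM). The BMP targets Id1 (284 and 493 CPM) and Id3 (243 and 444 CPM) were lower by less. Nodal itself, the TGF-beta family ligand of the epiblast, was the only 1 of 12 NODAL pathway genes compared to pass 2-fold, with 22.5 and 7.93 CPM. The median log2 ratio of the 12 was -0.23, with 4 above 0 and 8 below. Nodal was found in 40% of members and 15.5% of the others. The NODAL antagonist genes Lefty1 (ratio 0.818) and Lefty2 (ratio 0.709) were not higher. In the WNT list (14 genes) Wnt8a was past 2-fold higher and the antagonist gene Dkk1 (22.8 and 51.1 CPM) past 2-fold lower. In the FGF and ERK list (11 of 14 compared) 0 genes passed 2-fold. Its median log2 ratio was 0.04, with 6 genes above 0 and 5 below, the lowest at -0.68. Dusp6, Etv5 and Spry2, which ERK signalling induces, were among those above, 1.32 to 1.41 times as high.

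The metabolic and cell cycle lists had no gene past 2-fold. DNA methylation genes other than Dnmt3b had 0 of 6 past 2-fold, with Dnmt3a (31.1 and 22.7 CPM) and Tet1 (28.3 and 20.1 CPM) above the maintenance enzyme gene Dnmt1 (49.1 and 50.5 CPM) in ratio. Glycolysis (14 genes compared, median log2 ratio 0.20), S phase (14 genes, 0.16) and mitosis (14 genes, -0.05) had 0 genes past 2-fold. The median sum of the S phase list was 21.9 per 10000 in members and 19.3 in the others, and that of the mitosis list 17.9 in both. Of 9 stress and immediate early genes compared, 0 were past 2-fold higher and 2 lower. These were the AP-1 family genes Junb (20.1 and 42.4 CPM) and Atf3, which had 1.20 and 4.51 CPM.

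The members were not of 1 kind. When the EB cells were clustered without the 5 score genes, an analysis added after the data were seen, members fell in 8 of 11 clusters. Of a member's nearest neighbours 47.7% were members on average, against 5.51% for another EB cell. Clusters are called here by leading genes and given no cell type name. Cluster 7, led by Apln and Fst, held 75 members, 50.3% of its 149 cells. Cluster 4, led by Sfn, Nefl and Pou3f1, held 35 members. Cluster 1, led by Lefty2, Lhx1 and Mesp2, held 13 and cluster 6, led by Lgals3, Gbp2 and Krt19, held 10. Cluster 9, led by Spink3, Cer1 and Sox17, held 9. The last 8 members were in 3 further clusters, 4 of them in cluster 11, led by Rhox6, Rhox9 and Tdh. Since clusters were made from these genes, the values by cluster describe the members and test nothing.

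The 75 members in the Apln cluster had a median of 23833 UMIs. They had 271 CPM of Fgf5 (249 to 295), 350 CPM of T (324 to 377) and 564 CPM of Fst (532 to 599). T UMIs were in 96% of them, and Mesp1 UMIs in 52%. Utf1 was at 9.14 CPM. These members held streak transcripts beside the epiblast transcripts that the rule asked for.

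The 35 members in the Sfn cluster (median 33065 UMIs) had less of the streak and more of the pluripotency genes. Fgf5 was at 175 CPM (151 to 201) and T at 183 CPM (159 to 209), and Mesp1 at 23.8 CPM (15.7 to 34.7). Utf1, a chromatin factor of pluripotent cells, was at 142 CPM (121 to 166), Pou3f1 at 36.2 CPM (26.0 to 49.1) and Sox2 at 67.1 CPM (52.9 to 84.0). Their intervals do not overlap those of the Apln cluster members for these 6 genes. Dppa5a reached 2229 CPM against 873 CPM, Nefl 211 against 79.3 CPM and Epcam 294 against 185 CPM. Fn1 was at 61.8 CPM against 228 CPM. Nanog, at 155 CPM (133 to 180) and 135 CPM (119 to 152), did not separate them beyond counting error.

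The 13 members in the Lefty2 cluster and the 10 in the Lgals3 cluster had the highest Mesp1 levels of the members described by cluster. Mesp1 was at 1087 CPM (980 to 1202) and 703 CPM (619 to 795), with a UMI in every one of these 23 cells. Snai1, a repressor of E-cadherin, reached 214 CPM (169 to 269) in the Lefty2 cluster members, and Sox2 was at 5.72 CPM (0.693 to 20.7). In the Lgals3 cluster members Snai1 was at 58.1 CPM (36.0 to 88.9) and Sox2 at 27.7 CPM (13.3 to 50.9). These intervals overlap those of the Apln cluster members, 30.0 to 47.8 for Snai1 and 29.5 to 47.2 for Sox2. Fgf5 was at 317 CPM in the Lefty2 and 233 CPM in the Lgals3 cluster members, with a UMI in every one of these 23 cells. Fgf5 helped to choose the members, so its level beside Mesp1 describes the choice.

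The 9 members in the Spink3 cluster went against the epiblast label. They had 395 CPM of Sox17 (310 to 494) and 389 CPM of Cer1, each with a UMI in all 9. Trh was at 2083 CPM. Fgf5 (510 CPM, 414 to 622), Otx2 (263 CPM) and Dnmt3b (715 CPM) were above those of every other cluster's members named here, while Pim2 (73.6 CPM, 40.3 to 124) and Pou5f1 (463 CPM) were below. T was at 3 UMIs, or 15.8 CPM. Sox2, Utf1 and Mesp1 were at 0 UMIs, each with an exact upper limit of 19.4 CPM. These 9 cells carried the genes of the label together with endoderm genes, and are described by their leading genes only. In the members of the 4 other clusters described, Fgf5 was at 175 to 317 CPM and Pou5f1 at 1064 to 1299 CPM.

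**Figure D4:**
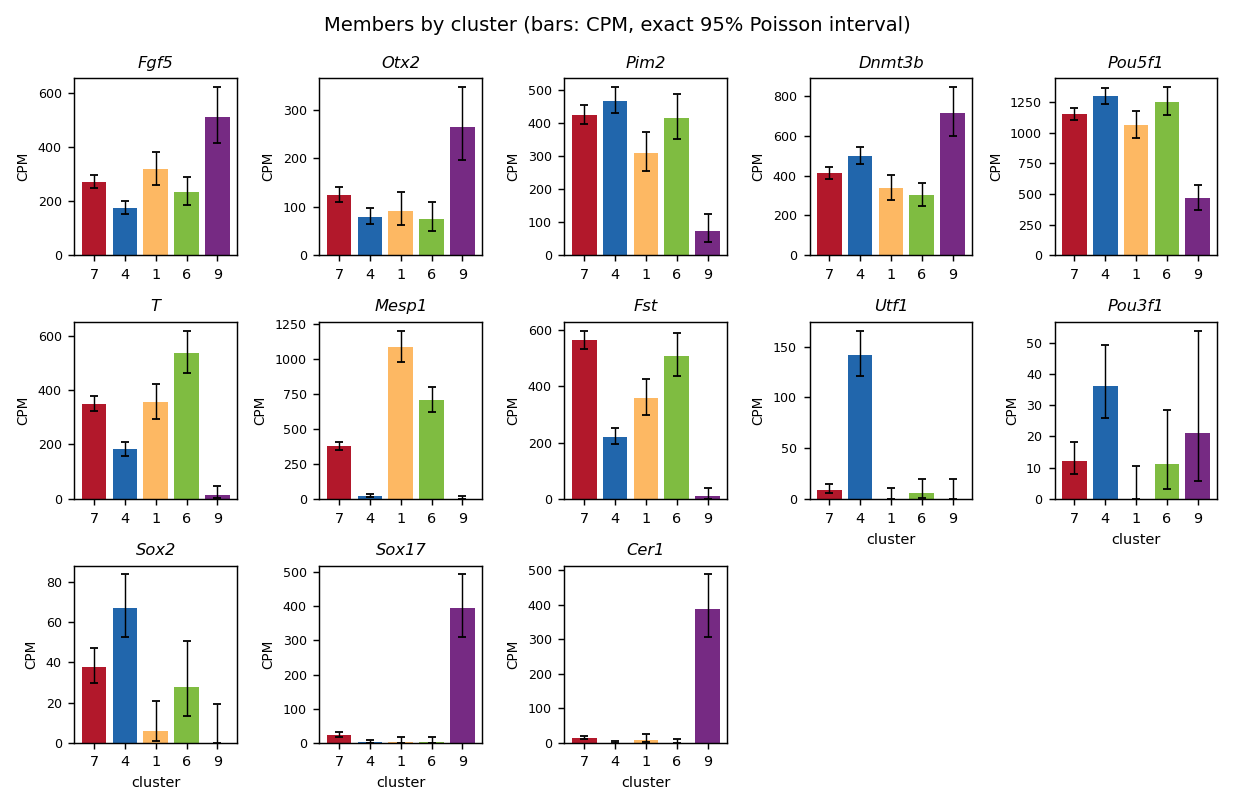
CPM of 13 genes (y axes) in the members of clusters 7 (Apln), 4 (Sfn), 1 (Lefty2), 6 (Lgals3) and 9 (Spink3), as bars from summed UMIs with exact 95% Poisson intervals. Utf1 is highest in the Sfn cluster members (142), Mesp1 in the Lefty2 cluster members (1087) and Sox17 in the Spink3 cluster members (395).

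Pairs of genes showed the same spread across single members. Fst and T had a Spearman correlation of 0.586 over the 150 members. Sox2 and Mesp1 had one of -0.379, with Sox2 UMIs in 32.9% of the members with a Mesp1 UMI and 62.2% of those without. Pou3f1 and T had one of -0.321. The summed streak list correlated with the mesenchymal list at 0.621 (both hold Snai1) and with the epithelial list at -0.415, and the endoderm list with the epithelial list at 0.561 (both hold Epcam). The cells share 1 library and differ in depth, so these are descriptions.

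Members were set beside 2 neighbouring states chosen by scores among the other EB cells. The 150 streak-scored cells had the highest mean of T, Mixl1, Eomes, Mesp1 and Fgf8 and a median of 26042 UMIs, and 18 members would also have been among the 150 highest of all EB cells by that score. The naive-scored cells were the 75 other EB cells of highest mean over Zfp42, Esrrb, Klf4 and Tcl1 (median 20510 UMIs), a choice made after the first naive score, which held Tbx3, was seen to take in mesoderm cells with 220 CPM of Hand1. By that first score 1 member was among the 150 highest of all EB cells. Against its 150 cells, 354 genes (3.9%) were at least 2-fold higher in members and 450 (4.96%) at least 2-fold lower.

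Against the streak-scored cells, 272 of 9078 genes (3%) were at least 2-fold higher in members and 266 (2.93%) at least 2-fold lower. The core pluripotency list was split. Of its 12 genes 5 were past 2-fold higher in members and 0 past 2-fold lower (median log2 ratio 0.82), with Sox2 at 42.2 CPM in members and 8.02 CPM in streak-scored cells, Nanog at 127 and 50.9 CPM and Dppa4 at 26.8 and 3.51 CPM. The 4 core genes lower in members included the abundant Tdgf1 (969 and 1138 CPM) and Sall4 (122 and 186 CPM), and the summed list did not separate the groups, with a median of 16.1 UMIs per 10000 in each. Of 15 primed list genes compared, 5 were past 2-fold higher in members and 0 past 2-fold lower (median log2 ratio 0.52). Utf1, of that list, was at 52.7 and 2.01 CPM. Summed, the primed list was at 727 CPM in members and 638 CPM in streak-scored cells. Adhesion differed as well, with 7 of 12 epithelial genes past 2-fold higher (Epcam 206 and 89.7 CPM, Cdh1 45.3 and 16.3 CPM) and 7 of 8 mesenchymal genes past 2-fold lower (Fn1 220 and 765 CPM, Snai1 50.1 and 140 CPM). Trh was 10.9 times as high in members (95% interval 9.13 to 13.0). Fst (417 and 391 CPM, ratio interval 0.998 to 1.15) and Gsc (69.7 and 81.0 CPM, ratio interval 0.732 to 1.01) did not differ beyond counting error, so their higher level in members than in all other EB cells was shared with streak-scored cells.

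Against the 75 naive-scored cells, 433 genes (4.77%) were at least 2-fold higher in members and 393 (4.33%) at least 2-fold lower. Klf2 was at 9.34 CPM in members and 397 CPM in naive-scored cells, a ratio of 0.0235. Utf1 (322 CPM in naive-scored cells), Sox2 (159 CPM) and Dppa5a (4051 CPM) were also higher there than in members. Nanog was not, with 127 CPM in members and 92.7 CPM in naive-scored cells (ratio 1.37, 1.14 to 1.65). Apln (67.5 and 4.72 CPM), Fst (417 and 62.6 CPM), Zic5 (69.2 and 14.8 CPM), Eomes (212 and 57.9 CPM) and T (303 and 117 CPM) were higher in members. Epcam (206 and 198 CPM) was close, with a ratio interval that spans 1. The primed list summed to 727 CPM in members and 736 CPM in naive-scored cells, so its sum was not particular to members. For Sox2 and Utf1 members lay between naive-scored and streak-scored cells, for T and Eomes, which chose the streak-scored cells, also, and Fgf5 was higher in members (252 CPM) than in either (40.7 and 67.4 CPM), as the rule required.

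**Figure D5:**
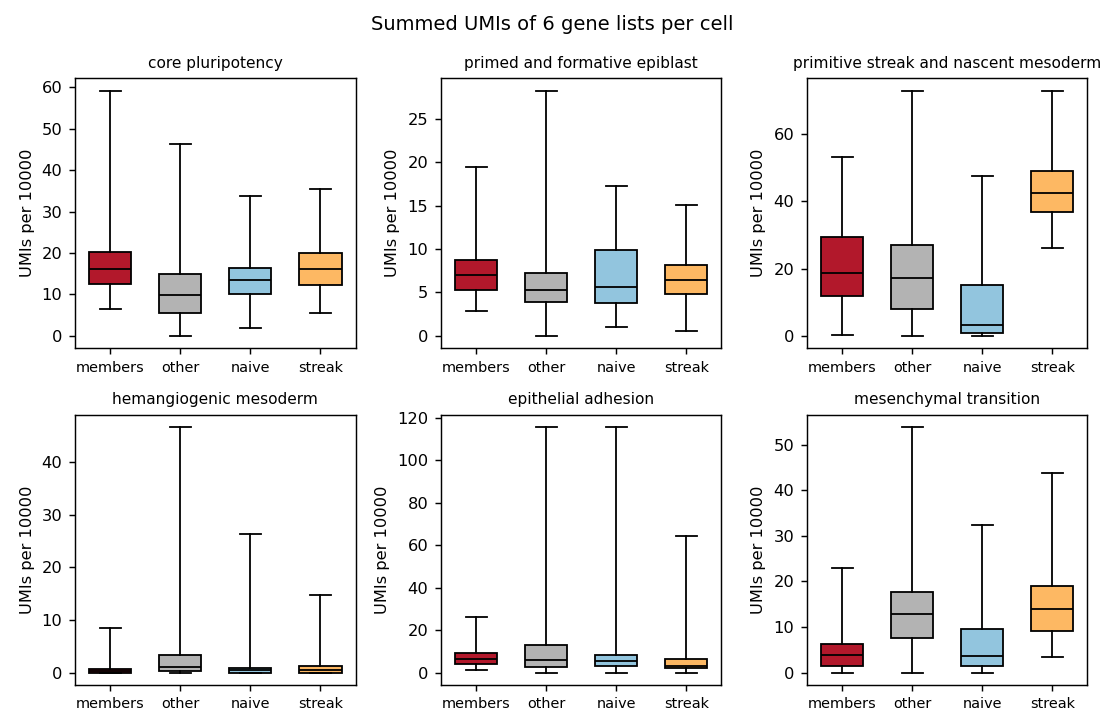
Summed UMIs per 10000 (y axes) of 6 gene lists over the cells of 4 groups: members, other EB cells, the 75 naive-scored cells and the 150 streak-scored cells. Boxes span the quartiles around the median, and whiskers reach the lowest and highest cell. For the core pluripotency list the medians are 16.1 in members, 16.1 in streak-scored cells, 13.5 in naive-scored cells and 9.87 in other EB cells, and for the streak list 18.7, 42.4, 3.16 and 17.1 in the same order. For the primed list they are 7.02, 6.42, 5.67 and 5.33.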

How the data were processed

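The authors deposited raw UMI counts per gene and barcode for 1 embryoid body and 1 yolk sac library, aligned to mm10 per the submitters' processing notes; no aligner or counter is named there. Each table lists 33456 genes and 737280 barcodes, unfiltered. UMIs of a group's cells were summed and scaled to CPM, that is to a total of 1000000. Intervals are exact Poisson, conditional binomial for ratios and Clopper-Pearson for shares, at 95%. Cell limits were set as in the earlier account of these data, and genes needed 200 UMIs over all EB cells. Clusters came from scanpy 1.11.5 (2000 variable genes, 30 components, 15 neighbours, Leiden resolution 1, seed 1). Empty droplets were barcodes ranked 10001 to 50000. Named genes were the 15 highest and 15 lowest ratios with at least 50 CPM in the higher group (outside the score, mitochondrial genes and unnamed models), the members of the fixed gene lists, and the genes that the text says were chosen otherwise. Members and lists were chosen with earlier results of these data known. There is 1 library per group, so no differential test was run. Ratio intervals were run on simulated counts with Poisson error alone, which is the error they assume. That run cannot show how they hold for counts that vary between cells. Gene positions are from GENCODE M21 and promoters from RefSeq, both GRCm38.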

Additional observations from a re-analysis of the deposited data

Results flagged for a closer look

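The 5 score genes also gave signal in barcodes outside the comparisons. In the 775 yolk sac cells, whose level at 3 UMIs is 0.124 CPM, Dnmt3b stood at 58.8 CPM and Pim2 at 8.23 CPM, Pou5f1 at 0.413 CPM and Fgf5 at 0.248 CPM, and Otx2 had 0 UMIs. The highest yolk sac score was 0.550, so 0 of 775 cells reached the lowest member's score. In the 142 EB barcodes left out for more than 10% mitochondrial UMIs, Pou5f1 stood at 514 CPM, Dnmt3b at 307 CPM, Pim2 at 103 CPM, Fgf5 at 78.6 CPM and Otx2 at 36.2 CPM, where 3 UMIs are 2.65 CPM. These barcodes had a median of 7195 UMIs, and 15 of them scored at or above the lowest member.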

How the results depend on the processing

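Of 79 named genes past 2-fold, 51 stayed past it and 76 kept their direction under 18 listed alternatives and 2 added after the data were seen, of which the 3 filters on UMIs leave single ratios as they are. The exceptions, in log2 ratio, were Foxa2 (-2.00) and Cer1 (-3.02) without the members holding a Sox17, Cer1 or Foxa2 UMI, which the alternative's construction fixes, Cer1 (-0.073) with a score without Fgf5, and Prdm1 with one without Pim2 (0.17) or Pou5f1 (0.13), where the cause was not tested. Genes at least 2-fold higher, 101, came to 194 with every cell thinned to 6000 UMIs, 271 with a minimum of 50 UMIs, 30 with 1000, 1402 with no filter and 402 at 1.5-fold; those lower, 329, came to 582, 713, 95, 887 and 752. The primed list's median of 0.71 was 0.47 in the 75 highest-scoring cells, 0.44, 0.39 and 0.17 with scores without Otx2, Dnmt3b or Pou5f1, 0.38 with genes divided by their SD, 0.41 after thinning and 0.18 with 1000 UMIs. The streak list's median of -0.09 was 0.20 in the 300 highest-scoring cells. The T share of 88.7% was 93.3% in 75 cells, 94%, 78%, 94.7% and 76.7% with scores without Otx2, Pim2, Dnmt3b or Pou5f1, 82% with split counts, 67.3% with thinning, 81.3% without the Apln cluster's members and 94.7% without members holding endoderm UMIs. The core, naive and haemangiogenic medians stayed within the counting interval of their middle genes in every alternative run. Thinning shared 100 members with the main choice and SD scaling 131. No paired analysis was possible because there is 1 library per group and the labels carry no replicate numbers. With 1 library, the spread between cultures is unknown.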
